A study of Saccharomyces cerevisiae with 4 samples.

Results

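Septins and the proteins of the contractile ring build the machinery with which a budding yeast cell divides, and the transcripts of 10 of their genes were followed here in tetraploid and haploid cells. The 10 genes were 5 septin genes, CDC3 (YLR314C), CDC10 (YCR002C), CDC11 (YJR076C), CDC12 (YHR107C) and SHS1 (YDL225W), and 5 genes of the ring, HOF1 (YMR032W), CYK3 (YDL117W), MYO1 (YHR023W), IQG1 (YPL242C) and INN1 (YNL152W). They were found by ORF name among the 6348 ORFs listed in at least 1 library. They were chosen by function, but also selected on knowledge of the measured tetraploid over haploid log2 ratios of these same libraries. Their values in that comparison are therefore a description, and no p-value is given for them. Counts of these genes under a p threshold in that comparison are listed only to show how they depend on the settings, and nothing is read from them.

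Poly(A) RNA was sequenced from 2 tetraploid (MATaaaa) and 2 haploid (MATa) cultures of Σ1278b, a laboratory background that can form filaments. Both strains are isogenic, otherwise wild type, and carry ura3-52, leu2::hisG and his3::hisG, and each ploidy is represented by 1 strain. Cells grew at 30 °C in synthetic complete medium with 2% glucose, until mid-log phase. Tetraploid A and haploid A formed culture pair A, and tetraploid B and haploid B formed pair B. With 1 strain per ploidy, every p-value concerns cultures of these strains only. Where a fit includes the culture pair, differences common to both cultures of a pair are taken out first. A p-value for ploidy then rests on the spread that remains, which so few libraries measure poorly for a single gene and which is partly pooled over genes. Only a fit that leaves the pair out uses the whole spread between cultures.

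Septins are GTP-binding proteins that join into rods and filaments and lie as a ring at the neck between mother and bud. Cdc3, Cdc10 and Cdc12 form the body of a rod, and Cdc11 or Shs1 its ends. The ring serves as a scaffold for other neck proteins, and at the end of mitosis a ring of actin and the type II myosin Myo1 contracts there while chitin synthase lays down the primary septum. Iqg1 links actin to this ring, and Hof1, Cyk3 and Inn1 couple its closure to septum synthesis. In the mitotic cycle the transcripts of HOF1, MYO1 and IQG1 are known to peak late, in the group that the transcription factors Mcm1 and Fkh2 control.

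The libraries held between 3612527 and 4133193 reads on ORFs, of which ORFs in or beside the ribosomal DNA repeats took between 37.0% and 43.7%. Each of the 10 genes was listed in all 4 libraries, with between 22 reads (HOF1 in haploid A) and 452 reads (CDC3 in tetraploid B). A minimum of 15 reads in either library of both pairs left 5680 ORFs for testing, and all 10 genes passed it. Levels are given as CPM, counts per 1000000 reads of a library size scaled with edgeR's TMM factors, so they are shares of a library and not amounts per cell. A log2 ratio is always that of tetraploids over haploids, from edgeR's fit with the culture pair as a block unless a single pair is named. The mating type markers STE2, STE6, MFA1, MFA2 and BAR1 were present in all libraries, and all 5 were lower in tetraploids, with log2 ratios from -2.43 to -1.59. Of the markers of the other mating type, MFALPHA1 and MFALPHA2 had at most 13 reads in any library and STE3 between 28 and 32.

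HOF1, MYO1 and IQG1 of the ring and CDC10 and CDC11 of the septins were higher in both tetraploid libraries than in either haploid library. CDC3, CDC12, SHS1, CYK3 and INN1 overlapped between ploidies. Among all 5680 tested genes, 21.9% had both tetraploid libraries above both haploid libraries and 20.5% had both below. Of the 10 genes, 5 were in the first group and 0 in the second. Of 15 other transcripts of G2 and M, described further below, 8 were in the first group and 1 in the second, so this trait was not particular to the 10 genes.

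**Figure D1:**
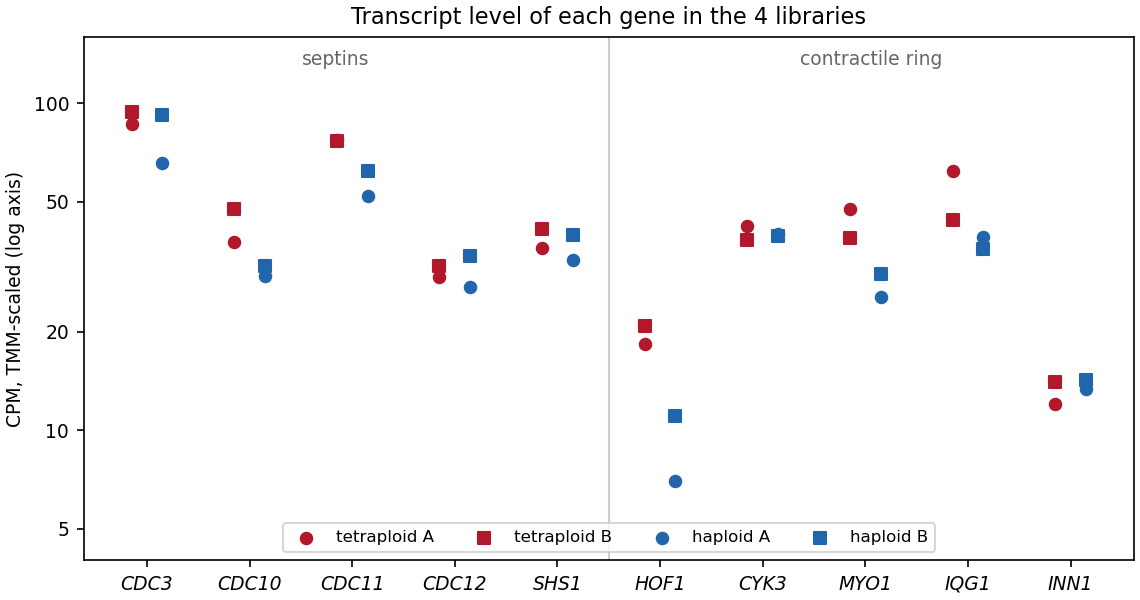
Transcript level of the 10 genes in each library, as TMM-scaled CPM on a log axis, with tetraploid libraries in red left of haploid libraries in blue, pair A as circles and pair B as squares. HOF1 has 18.3 and 20.9 CPM in tetraploids A and B, against 7.01 and 11.1 CPM in haploids A and B.

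HOF1 codes for an F-BAR protein that binds the septin ring first and the actomyosin ring later. It had 78 and 100 reads in tetraploids A and B, against 22 and 39 reads in haploids A and B. This was 18.3 and 20.9 CPM in tetraploids A and B, against 7.01 and 11.1 CPM in haploids A and B, so that the lowest tetraploid value lay above the highest haploid value. The means were 19.6 ± 1.82 CPM in tetraploids and 9.04 ± 2.87 CPM in haploids (SD, n = 2 each). The log2 ratio was 1.11 ± 0.23 (SE), a 2.16-fold higher level, and it was 1.36 within pair A and 0.91 within pair B. HOF1 stood 21st from the top by log2 ratio among the tested genes. The 22 reads of haploid A have a 95% Poisson interval of 13.8 to 33.3 reads, which covers counting error only.

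MYO1 codes for the heavy chain of the myosin that drives contraction. It had 202 and 185 reads in tetraploids A and B, against 80 and 106 reads in haploids A and B. Scaled, the values were 47.5 and 38.7 CPM in tetraploids A and B, against 25.5 and 30.1 CPM in haploids A and B, and the groups did not overlap. Its log2 ratio was 0.62 ± 0.17 (SE), with 0.89 within pair A and 0.36 within pair B. The smaller difference of pair B came with a lower tetraploid and a higher haploid value than in pair A.

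IQG1 codes for the IQGAP protein that recruits actin to the ring. It had 265 and 210 reads in tetraploids A and B, against 122 and 126 reads in haploids A and B. Scaled, these were 62.3 and 43.9 CPM in tetraploids A and B, against 38.9 and 35.8 CPM in haploids A and B. The tetraploid libraries thus differed from each other by more than tetraploid B differed from either haploid. The log2 ratio was 0.49 ± 0.15 (SE), with 0.68 within pair A and 0.29 within pair B.

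CYK3 and INN1, both of which act on chitin synthase at the closing ring, differed by less than their standard errors. CYK3 had 42.1 and 38.2 CPM in tetraploids A and B, against 39.8 and 39.2 CPM in haploids A and B, and a log2 ratio of 0.02 ± 0.15 (SE). INN1, the least abundant ring gene by reads in the tetraploids, had 51 and 67 reads in tetraploids A and B, against 42 and 50 reads in haploids A and B. Scaled, INN1 had 12.0 and 14.0 CPM in tetraploids A and B, against 13.4 and 14.2 CPM in haploids A and B, and a log2 ratio of -0.08 ± 0.22 (SE). Tetraploid and haploid libraries overlapped for both genes.

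Among the septins, CDC10 and CDC11 had the largest differences. CDC10, which codes for the central subunit of the rod, had 160 and 227 reads in tetraploids A and B, against 93 and 112 reads in haploids A and B. This was 37.6 and 47.4 CPM in tetraploids A and B, against 29.6 and 31.8 CPM in haploids A and B, with no overlap. Its log2 ratio was 0.47 ± 0.16 (SE), with 0.34 within pair A and 0.57 within pair B. CDC10 was the only one of the 5 non-overlapping genes with the larger difference in pair B. CDC10 lies on chromosome 3, whose 153 tested genes had a median log2 ratio of 0.26, with 0.27 within pair A and 0.23 within pair B, and the part of the chromosome in the value of CDC10 was not tested. None of the other 9 genes lies on chromosome 3 or on chromosome 6, whose 111 tested genes had a median of -0.40.

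CDC11, which codes for a subunit at the ends of the rod, had 328 and 366 reads in tetraploids A and B, against 164 and 219 reads in haploids A and B. The scaled values were 77.1 and 76.5 CPM in tetraploids A and B, against 52.3 and 62.2 CPM in haploids A and B. The tetraploid libraries were nearly equal and both above the haploid libraries. The log2 ratio was 0.42 ± 0.14 (SE), with 0.56 within pair A and 0.30 within pair B.

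The other 3 septin genes did not separate the ploidies. CDC3 had 86.5 and 94.4 CPM in tetraploids A and B, against 65.7 and 92.2 CPM in haploids A and B. Only haploid A stood apart, and the log2 ratio of 0.21 ± 0.14 (SE) was 0.40 within pair A and 0.03 within pair B. CDC12 had 29.4 and 31.8 CPM in tetraploids A and B, against 27.4 and 34.1 CPM in haploids A and B, and a log2 ratio of -0.01 ± 0.17 (SE). SHS1, whose product can take the place of Cdc11 at the rod ends, had 36.2 and 41.4 CPM in tetraploids A and B, against 33.1 and 39.5 CPM in haploids A and B, and a log2 ratio of 0.10 ± 0.15 (SE).

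**Figure D2:**
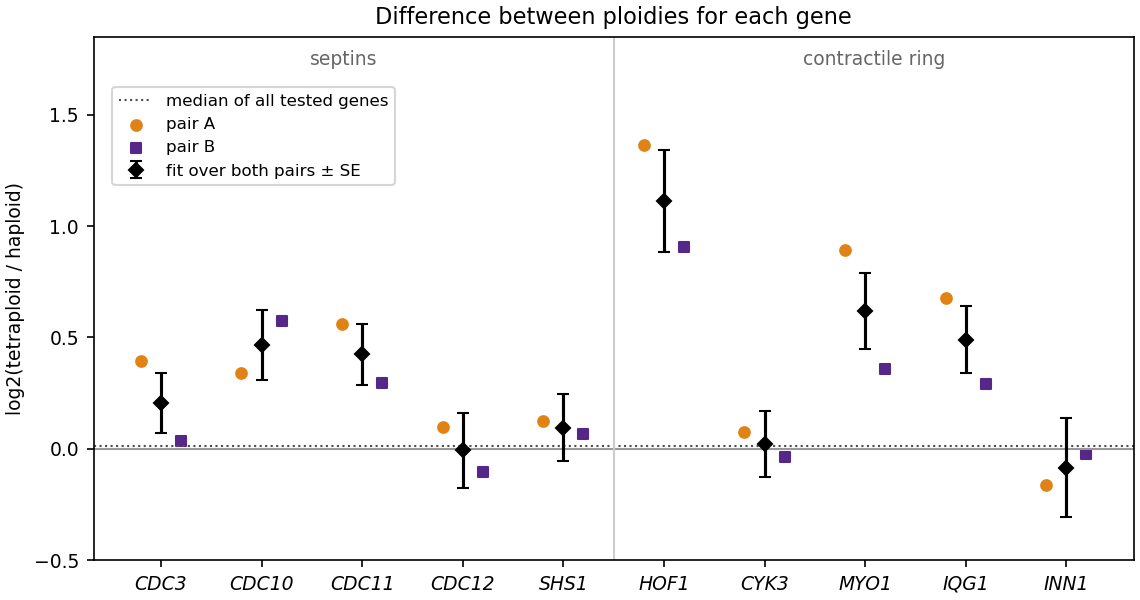
Log2 ratio of tetraploid over haploid for each gene, as the fit over both pairs with its standard error (black), within pair A (orange) and within pair B (purple), beside the median of all tested genes (dotted line, 0.01). HOF1 is highest with 1.11, and CDC12, SHS1, CYK3 and INN1 lie within 1 standard error of 0.

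Over the 5 ring genes the median log2 ratio was 0.49, with 0.68 within pair A and 0.29 within pair B. It was 0.23 without tetraploid A and 0.73 without tetraploid B, in fits with no block. Over the 5 septin genes it was 0.21, with 0.34 within pair A and 0.07 within pair B, and -0.02 without haploid A and 0.46 without haploid B in fits with no block. The median of all tested genes was 0.01. Each list ranged widely, from -0.08 to 1.11 for the ring genes and from -0.01 to 0.47 for the septin genes, so that the ranges overlapped. The direction of the fit was above 0 for 8 of the 10 genes, and for 2903 of all 5680 tested genes. Scaled by total counts it was above 0 for all 10, as CDC12 and INN1 turned to 0.28 and 0.20, with the median of all genes at 0.30.

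At a Benjamini-Hochberg adjusted p under 0.05, the quasi-likelihood test of edgeR with this block called 143 genes higher in tetraploids (2.52%) and 304 lower (5.35%). Scaling by total counts in place of TMM gave 1168 higher and 115 lower. HOF1 and MYO1 were among the genes called higher, and 0 of the 10 were called lower. In this fit 5 of the 10 were higher and 0 lower at an unadjusted p under 0.05, against 10.6% and 14.2% of all tested genes. Since the genes were chosen with this comparison known, nothing is read from these numbers. Without the block 4 genes were called higher (0.0704%), and 0 of the 10 were called in either direction, with 3 of them at an unadjusted p under 0.05. DESeq2 with the pair as a term also called 0 of the 10, as did edgeR with no filter on low counts, where 5 had an unadjusted p under 0.05. For the 3 genes with no block and the 5 with no filter, no share over all genes is given, so nothing is read from them. DESeq2 gave an adjusted p for CDC3, CDC11 and IQG1 alone. By DESeq2 1 of the 10 had an unadjusted p under 0.05, as had 449 of all 5680 tested genes.

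How far cultures of the same ploidy differed is a measure that the choice of genes did not use. Pair B over pair A, with ploidy in the same edgeR fit, gave log2 differences from -0.34 (IQG1) to 0.34 (HOF1), with 7 of the 10 genes above 0. By edgeR, 0 of the 10 genes were called for this difference, against 9.49% of all tested genes. The adjusted p-values ran from 0.172 to 0.830, and 2 genes, CDC3 and IQG1, had an unadjusted p under 0.05, as had 24.2% of all tested genes. DESeq2 gave 8 of the 10 an adjusted p and called 0, with 0 at an unadjusted p under 0.05. For IQG1 the difference between pairs was -0.34 ± 0.15 (SE), smaller in size than its log2 ratio of 0.49 ± 0.15 (SE) between ploidies. For CDC3 it was 0.30 ± 0.14 (SE), larger than its log2 ratio of 0.21 ± 0.14 (SE).

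Levels of different genes were compared per kilobase of coding sequence, with lengths taken from the S288C reference assembly R64. On this scale the septin genes were above the ring genes. In tetraploids CDC11 had 61.5 ± 0.339, CDC3 57.9 ± 3.61, CDC10 43.9 ± 7.18, CDC12 25.0 ± 1.38 and SHS1 23.4 ± 2.21 CPM per kilobase (SD, n = 2). In haploids the septin levels were 45.8 ± 5.61 for CDC11, 50.5 ± 12.0 for CDC3, 31.7 ± 1.57 for CDC10, 25.1 ± 3.84 for CDC12 and 21.9 ± 2.69 for SHS1 CPM per kilobase (SD, n = 2). CDC3 and CDC11 were the highest in each ploidy, with haploid values that overlapped each other. CDC12 and SHS1 also lay within their spread of each other.

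The ring genes had lower levels per length. CYK3 led in tetraploids, with 15.1 ± 1.02 CPM per kilobase, against 14.9 ± 0.177 in haploids (SD, n = 2 each). IQG1 had 11.8 ± 2.90 CPM per kilobase in tetraploids and 8.32 ± 0.491 in haploids, and INN1 10.6 ± 1.16 in tetraploids and 11.2 ± 0.464 in haploids. HOF1 and MYO1 were lowest, with 9.76 ± 0.903 and 7.44 ± 1.08 CPM per kilobase in tetraploids, against 4.50 ± 1.43 and 4.80 ± 0.561 in haploids. The highest level per length of any ring gene in a library was below the lowest of any septin gene. In tetraploids the means of HOF1, INN1 and IQG1 did not differ beyond their spread. HOF1 lay below INN1 in each library of both ploidies. In CPM per kilobase it had 9.12 against 9.74 in tetraploid A and 10.4 against 11.4 in tetraploid B. In haploids it had 3.49 against 10.9 in A and 5.51 against 11.5 in B.

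**Figure D3:**
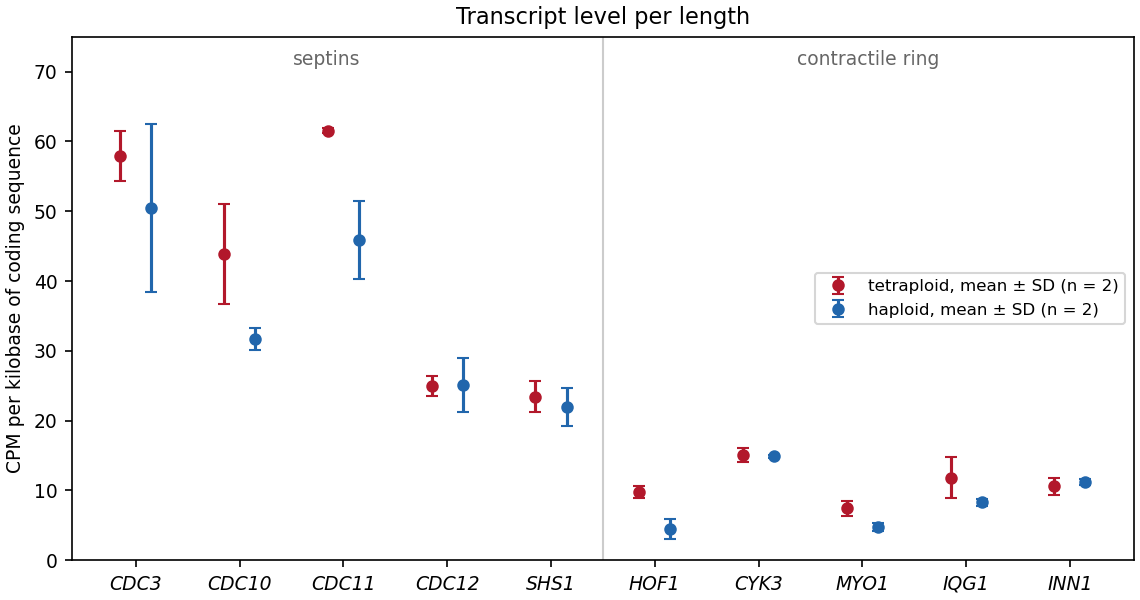
Level of each gene in CPM per kilobase of coding sequence, as the mean of 2 libraries with its SD, with tetraploids in red left of haploids in blue. The 5 septin genes lie between 21.9 and 61.5 and the 5 ring genes between 4.50 and 15.1.

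Ratios within a library do not depend on how libraries are scaled to each other. For every 100 reads on the 5 septin genes, HOF1 had 6.87 and 7.17 reads in tetraploids A and B, against 3.37 and 4.26 reads in haploids A and B. Relative to the septins, then, HOF1 was again higher in both tetraploid libraries. MYO1 had 17.8 and 13.3 reads per 100 septin reads in tetraploids A and B, against 12.3 and 11.6 in haploids A and B, without overlap. For IQG1 the values were 23.3 and 15.1 in tetraploids A and B, against 18.7 and 13.8 in haploids A and B, and these overlapped. CYK3 had 15.8 and 13.1 in tetraploids A and B, against 19.1 and 15.1 in haploids A and B, lower in the tetraploid of each pair but with overlap. Relative to the septins INN1 was lower in both tetraploids, with 4.49 and 4.80 in tetraploids A and B, against 6.43 and 5.46 in haploids A and B. The CPM of INN1 overlapped between ploidies (log2 ratio -0.08 ± 0.22, SE). The septin reads it is set against include CDC10 and CDC11, which were higher in both tetraploids. All 5 ring genes together had 68.3 and 53.4 reads per 100 septin reads in tetraploids A and B, against 59.9 and 50.2 in haploids A and B, also with overlap.

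Within the septins the mixture of transcripts shifted by a few percentage points. Of the summed septin level per length, CDC12 made up 11.9% and 11.7% in tetraploids A and B, against 14.3% and 14.4% in haploids A and B. SHS1 made up 10.8% and 11.3% in tetraploids A and B, against 12.8% and 12.3% in haploids A and B. CDC11 went the other way, with 30.6% and 27.7% in tetraploids A and B, against 26.7% and 25.8% in haploids A and B. CDC3 and CDC10 overlapped between ploidies on this measure. These shares are tied to each other, since they sum to the whole, and they were not tested.

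**Figure D4:**
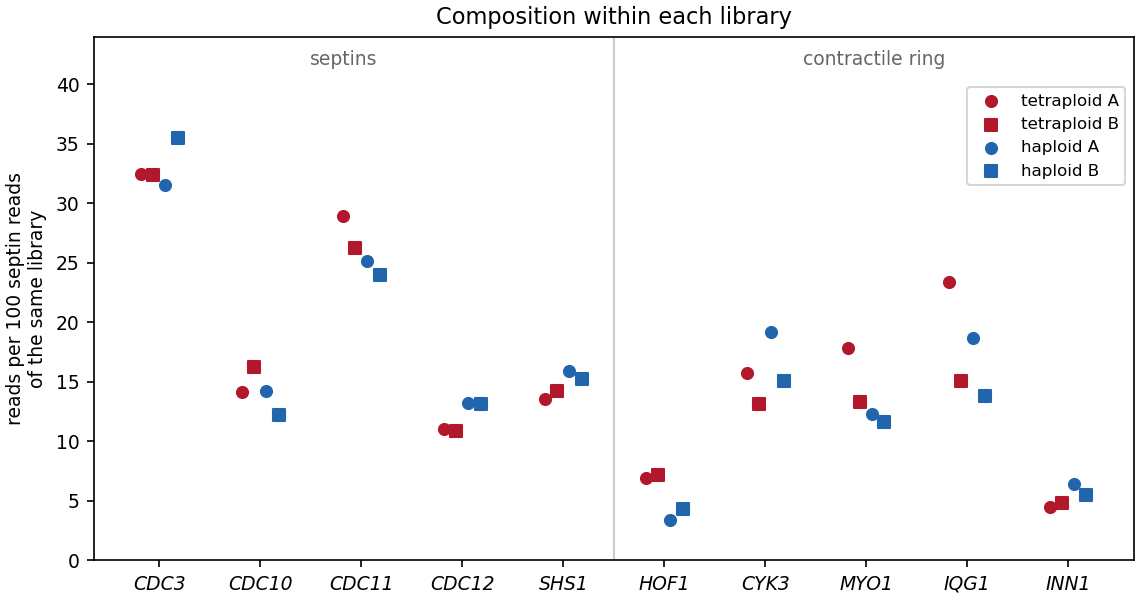
Reads on each gene per 100 reads on the 5 septin genes of the same library, with the tetraploid libraries in red left of the haploid libraries in blue and pairs A and B as circles and squares. HOF1 lies at 6.87 and 7.17 in tetraploids A and B, above 3.37 and 4.26 in haploids A and B.

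Other genes of the pathway were taken from lists made by function. These lists too were chosen with earlier results of these data known, which limits what the p-values of their genes can show. In the paired edgeR fit 10.6% of all tested genes were higher and 14.2% lower at an unadjusted p under 0.05, the background for the counts at that p. DESeq2 could call only genes to which it gave an adjusted p, 2156 of the 5680. Of 14 regulators of the septins and proteins of the bud neck, edgeR called 0 in either direction, with 3 higher and 1 lower at an unadjusted p under 0.05, and DESeq2 called 0 of the 7 it gave an adjusted p, with 0 of the 14 at an unadjusted p under 0.05. Their median log2 ratio was 0.03. By edgeR the 3 higher genes at that p were BUD4, KCC4 and SYP1, and the lower gene was GIN4. GIN4 had -0.45 ± 0.14 (SE), with -0.37 within pair A and -0.52 within pair B. KCC4 and SYP1 lie on chromosome 3, of whose tested genes 34.0% were higher at that p. The part of the chromosome in their values was not tested. The largest value was that of BUD4, whose product binds septins at the neck, with 0.47 ± 0.18 (SE), but it was 0.94 within pair A and 0.03 within pair B. The sporulation septin gene SPR28, which is made in meiosis, had 2 and 5 reads in tetraploids A and B, against 4 and 3 reads in haploids A and B, below the minimum for testing. SPR3, the other sporulation septin gene, was listed in 0 of the 4 libraries. Septum synthesis was covered by 6 genes, of which edgeR called 0 (2 lower at an unadjusted p under 0.05) and DESeq2 0 of the 5 with an adjusted p (1 of the 6 under 0.05 unadjusted), with a median of -0.01. The chitin synthase gene CHS3 had the largest value in that list, -0.33 ± 0.12 (SE).

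Among 11 partners of the ring edgeR called 0 higher, also with 0 higher at an unadjusted p under 0.05, and 1 lower, the actin gene ACT1 (list median 0.03). DESeq2 called ACT1 alone among the 7 it gave an adjusted p. ACT1 had 708 and 502 CPM in tetraploids A and B, against 1132 and 688 CPM in haploids A and B, and a log2 ratio of -0.57 ± 0.12 (SE, edgeR adjusted p = 0.00995). Tetraploid A lay above haploid B, so the groups overlapped although both pairs moved the same way. Its log2 ratio was -0.28 and not called with total counts, was not called with no filter on low counts, and in fits with no block was -0.19 without haploid A, -0.37 without tetraploid B, -0.86 without tetraploid A and -0.90 without haploid B. ACT1 also differed between pairs, by -0.61 for B over A (edgeR adjusted p = 0.00549). The study normalized its qPCR values to ACT1 unless stated otherwise, and describes ACT1 as a constant share of total RNA across its strains. The values here are shares of poly(A) reads, which is a different measure. In the mitotic exit network, the signalling chain that releases the phosphatase Cdc14 and starts ring closure, 1 of 13 genes was called higher and 1 lower by edgeR (list median 0.08). DESeq2 called 0 of the 3 genes it gave an adjusted p, with 1 of the 13 at an unadjusted p under 0.05. CDC14 itself had 36.9 and 36.8 CPM in tetraploids A and B, against 57.7 and 68.1 CPM in haploids A and B, and a log2 ratio of -0.77 ± 0.14 (SE, edgeR adjusted p = 0.00359). ACT1 and CDC14 lie on chromosome 6, whose tested genes had a median of -0.40, and the part of the chromosome in their values was not tested.

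The gene called higher in that network was CDC5, which codes for the polo kinase and is itself transcribed in G2 and M. CDC5 had 53.8 and 47.2 CPM in tetraploids A and B, against 30.9 and 37.5 CPM in haploids A and B. Its log2 ratio was 0.56 ± 0.16 (SE, edgeR adjusted p = 0.0423). Within pair A the ratio was 0.80 and within pair B 0.33, beside 0.89 and 0.36 for MYO1. Without the block none of the 3 was called, with edgeR adjusted p-values of 0.577 for ACT1, 0.286 for CDC14 and 0.509 for CDC5. With no filter on low counts CDC14 and CDC5 were not called either, nor was CDC5 with a minimum of 50 reads in all 4 libraries.

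Growing cultures hold cells of every stage, and more cells in a stage cannot be told apart from more transcript per cell. The 15 listed transcripts of G2 and M had a median log2 ratio of 0.24, with 0.45 within pair A and 0.03 within pair B, and 12 of the 15 were above 0. Of these edgeR called CDC5 higher and 0 lower, with 5 higher and 0 lower at an unadjusted p under 0.05, and DESeq2 called 0 of the 3 it gave an adjusted p, with 0 of the 15 at an unadjusted p under 0.05. Each pair value rests on 1 library per ploidy. Beside these medians, HOF1 had 1.36 within pair A and 0.91 within pair B, MYO1 0.89 and 0.36, and IQG1 0.68 and 0.29. The log2 ratios of the 15 transcripts ran from -0.28 ± 0.17 (SE) for CLB2, the mitotic cyclin gene, to 0.72 ± 0.24 (SE) for HST3. HST3 had 1.00 within pair A and 0.42 within pair B. KIN3 had 0.70 ± 0.24 (SE), with 0.69 within each pair. The log2 ratios of HST3 and KIN3 were thus above those of MYO1 (0.62) and IQG1 (0.49). The 4 regulators of these transcripts, MCM1, FKH1, FKH2 and NDD1, had a median of 0.21. By edgeR 0 of the 4 were called, and by DESeq2 0 of the 1 with an adjusted p, with 0 of the 4 at an unadjusted p under 0.05 by either tool. MCM1 had the largest value, 0.25 ± 0.14 (SE).

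For the other stages, the 8 core histone genes transcribed in S phase had a median of 0.28, with 0.07 within pair A and 0.51 within pair B. Of the 8, edgeR called 0 (4 at an unadjusted p under 0.05) and DESeq2, with an adjusted p for each, 0 (1 under that p). The 5 transcripts of M/G1 had a median of 0.32, and PCL9, a cyclin gene of early G1, was called higher (log2 ratio 0.77 ± 0.21 SE, edgeR adjusted p = 0.0408). The 4 tested transcripts of G1 had a median of -0.25, and the G1 cyclin gene CLN1 was called lower (log2 ratio -0.67 ± 0.17 SE, edgeR adjusted p = 0.0218). Neither was called without the block (edgeR adjusted p = 0.468 for PCL9 and 0.509 for CLN1), or with no filter on low counts, and DESeq2 gave neither an adjusted p. With total counts CLN1 was not called and had a log2 ratio of -0.38. The part of the stages in the values of the septin and ring genes was not tested.

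**Figure D5:**
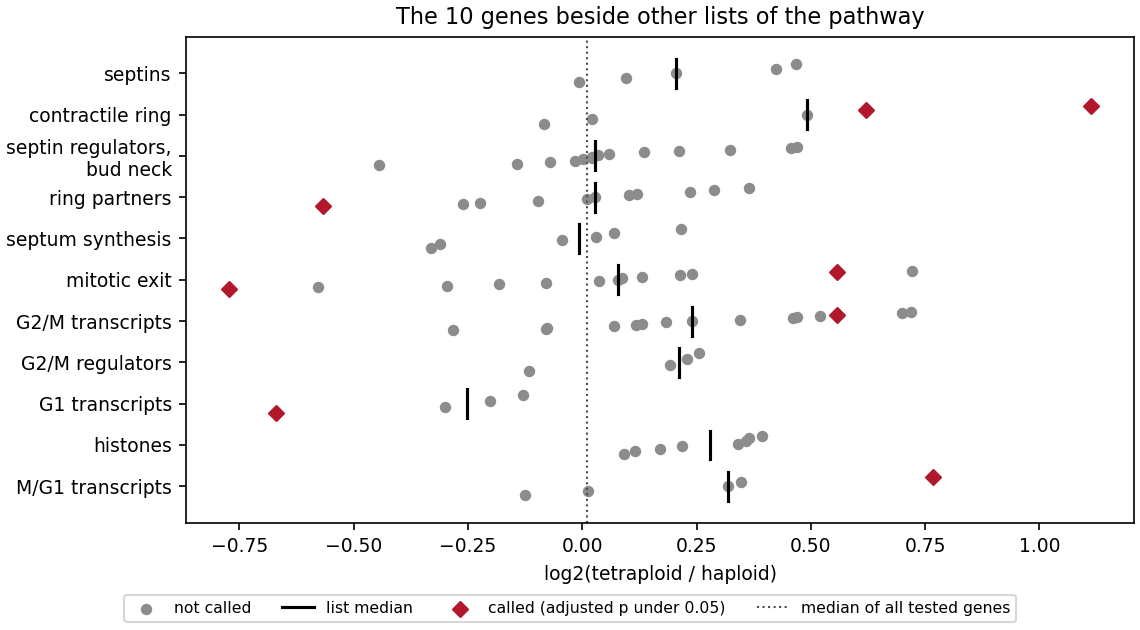
Log2 ratio of tetraploid over haploid for the septin genes, the ring genes and the other lists, with 1 point per tested gene, genes called in edgeR's quasi-likelihood test as red diamonds, list medians as black bars and the median of all tested genes as a dotted line. The ring genes have a median of 0.49 and the septin genes of 0.21, against 0.01 for all tested genes. HOF1 and MYO1 were chosen with this comparison known, so nothing is read from their diamonds.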

How the data were processed

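The authors mapped the reads of 36 cycles on the Illumina Genome Analyzer 2 to the Σ1278b genome with Bowtie 0.10.0 and deposited raw read counts per ORF, summed over both strands and not normalized. ORFs that a library did not list were taken as 0. The software was R 4.3.3 with DESeq2 1.42.0, edgeR 4.0.16 and limma 3.58.1, and Python 3.11.15 with pandas 2.3.3. The main test was edgeR's quasi-likelihood test on genes that reached 15 reads in either library of both pairs, with TMM factors (0.840 to 1.19), the culture pair as a block, as the study compares libraries within pairs, and Benjamini-Hochberg adjustment over all 5680 genes. A standard error is the size of a log2 fold change over the square root of F. Values within a pair use an added count of 0.5. Libraries of a pair deviated together (r = 0.52 across genes). The coefficient of variation between libraries that edgeR estimated was 0.0858 with the block and 0.182 without it. The procedure was also run on simulated counts with a pair effect for each gene and the same dispersion for all genes. Since the simulation assumed the model with the block, it cannot decide between fits with and without the block. Alternatives were a fit without the block, DESeq2, limma-voom, 3 other scalings, 2 other filters and leaving out each library.

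Names and coding lengths came from the R64 assembly of S288C, which names 5754 of the 6348 ORFs. It is another strain, so no coordinates or sequences are given. In R64 none of the 10 genes overlaps another annotated gene. The 10 genes and the other lists were chosen with earlier results of these data known. All 10 genes are named, and of each other list the called genes (at most 4 in each direction) or, where there was none, the gene with the largest absolute log2 fold change. Genes named beyond this rule (CLB2, GIN4, HST3, KCC4, KIN3, SYP1, SPR28 and SPR3) were added after their values were seen. The promoter motifs that had been planned were not analysed here. With 2 cultures per ploidy, the depth of 3612527 to 4133193 counts per library sets only the counting error, and reads carried no molecular identifiers.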

Additional observations from a re-analysis of the deposited data

How the results depend on the processing

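The direction of the log2 ratio stayed the same for CDC10, CDC11, HOF1, MYO1 and IQG1, and for ACT1, BUD4, CDC5, CDC14, CHS3, CLN1, MCM1 and PCL9, under all alternatives run. HOF1 ranged between 0.83 and 1.48 and MYO1 between 0.36 and 0.91. Calls depended on the settings. Of all tested genes (143 higher and 304 lower), 4 were called higher and 18 lower with no replicate block, 23 and 133 with DESeq2, 262 and 490 with RLE factors, 1168 and 115 with total counts, 370 and 141 with total counts outside the ribosomal DNA, and 12 and 87 with no filter on low counts. Leaving out 1 library, with no block, gave 4 to 18 higher and 20 to 75 lower. Of the 10 genes, HOF1 and MYO1 were called higher in the main fit. With no block, with no filter and with at least 50 reads in all 4 libraries (where HOF1 and INN1 were not fitted) 0 were called. DESeq2 called 0, but it gave an adjusted p to CDC3, CDC11 and IQG1 alone, so it could not call HOF1 or MYO1. RLE factors gave 4, total counts 6 and total counts outside the ribosomal DNA 5. Since the genes were chosen with this comparison known, nothing is read from these counts. At an unadjusted p under 0.05 the main fit had 5 of the 10 higher and 0 lower, against 10.6% and 14.2% of all tested genes. There were 3 of the 10 under that p with no block, 5 with no filter and 4 of the 8 fitted with the higher minimum. DESeq2 had 1 of the 10 under that p, and 449 of all 5680 tested genes. With no block, with no filter and with the higher minimum no share over all genes at that p is given, so nothing is read from those counts. limma-voom called HOF1 and MYO1, among 154 genes higher and 369 lower. With the higher minimum 98 of 3766 genes were called higher and 217 lower.

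Total counts raised the septin median to 0.49 and the ring median to 0.78, with a median over all genes of 0.30. Relative to the median of all genes, HOF1 had 1.10 and MYO1 0.61 under all scalings. By DESeq2 HOF1 had 1.13 and by limma-voom 1.09 on this measure, and MYO1 0.61 by both. CDC12 had 0.28 with total counts, 0.17 with those outside the ribosomal DNA, 0.0018 with no filter and 0.016 with the higher minimum, and INN1 had 0.20 and 0.091 with these 2 scalings. With a library left out, the ring median ran from 0.23 to 0.73, IQG1 from 0.23 to 0.73, CDC10 from 0.29 to 0.63, ACT1 from -0.90 to -0.19, the septin median from -0.024 to 0.46, CDC3 from -0.028 to 0.46, CDC12 from -0.16 to 0.16, SHS1 from -0.024 to 0.23, CYK3 from -0.046 to 0.087 and INN1 from -0.21 to 0.022. The lowest values of the septin median, CDC3, CDC12 and SHS1 came without haploid A. Beyond these construction differences, the cause was not tested. With 2 libraries per ploidy, and 22 to 100 reads for HOF1, depth limits HOF1 and INN1 most.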
